A study of Homo sapiens with 8 samples.

Results

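The genes described here encode immune surface molecules, cytokines and their receptors, and were picked by symbol: CD numbers, interleukins, TNF family, Toll-like receptors, integrins, C-type lectins, LILR, HLA, Fc gamma receptors, colony stimulating factors, chemokine receptors and interferons. They numbered 56 of the 5820 genes that the authors' annotation named beside a region of differential H3K79me2 or H3K79me3, which are lysine 79 of histone H3 with a pair of methyl groups or with a full set. ChIP-seq libraries came from MOLM-13, an established acute myeloid leukemia line with an MLL fusion gene, which carried either the control hairpin ShNC or ShLAMP5-AS1, named after the antisense transcript of LAMP5 that it targets. The 8 libraries were 4 ChIP and 4 input, so that every combination of mark, hairpin and ChIP or input was 1 library. The titles, the antibody and the cell type fields were followed, although the shared protocol text of the labels describes a xenograft-derived culture and siRNAs against other genes, and the transfection field gives control siRNA for the ShNC libraries. Whether each hairpin was carried by a pool or by 1 clone is not given in the sources used here.

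The tables analysed here hold regions that the authors listed as differential when ShNC was set against ShLAMP5-AS1, with no signal per library. The cell type label could therefore not be checked against markers, the knockdown could not be checked either, and the depth of the libraries is unknown. Each region has a signed score made by the authors, whose scale and sign are not defined in the files or labels. A negative or positive score is given here as deposited and says nothing about which hairpin had more of the mark. With 1 library a group there is no test, and regions or genes are not replicates. Fewer cells carrying a mark and less of the mark per cell cannot be told apart in such bulk libraries. Intervals on shares are 95% Wilson intervals, cover counting error only and treat regions or genes as independent, which neighbouring regions are not.

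H3K79 methylation is written by DOT1L and lies over transcribed genes, strongest in the first part of the gene body. In MLL leukemia the fusion protein brings DOT1L to its target genes. Surface receptors of this kind let myeloid cells bind cytokines, chemokines, microbial products and matrix, and several of them, such as IL1RAP, IL3RA, CD44, CD47 and ITGA4, are known for their presence on leukemic blasts or stem cells.

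Regions of either mark were found in 52 of the 370 protein-coding RefSeq genes whose symbols fit the rule, or 14.1%, while 25.1% of all 20052 protein-coding genes had one. For H3K79me2 the count was 40 genes, or 10.8% (interval 8.04 to 14.4), beside 17.0% of all protein-coding genes. For H3K79me3 it was 34 genes, or 9.19% (6.65 to 12.6), beside 17.9%. Among the groups of more than 10 genes, the integrin group had the largest share in either mark, 8 of 30 genes (26.7%). The group of the TNF family and TNF-induced proteins came next, with 9 of 43 (20.9%). Neither share was far above the 25.1% of all protein-coding genes, and the second was below it. Interleukins and their receptors had 9 of 85 (10.6%). No HLA gene of 21 and no LILR gene of 11 was named in either table. A gene that is not named may lack the mark, carry it equally with both hairpins or differ too little to be listed. Reads of near-identical genes may also not have been placed. Gene length, which sets how many regions can fall in a gene, was not matched. Besides these 52 genes, the members included 3 that RefSeq types as pseudogenes (FCGR1B, FCGR1C and IFNL4) and the noncoding IL10RB-AS1.

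H3K79me3 scores of these genes were almost all negative, as they were in the whole table. Of 92 regions, 89 were negative, or 96.7% (interval 90.8 to 98.9), beside 98.1% of all regions that name a gene. Of 37 members, 34 had negative regions only (91.9%), beside 94.2% of all genes. Positive regions only were found in 2 (5.41%), beside 2.28%, and both signs in 1 (2.7%), beside 3.48%. The 3 positive regions lay in CD44, IL16 and TNFRSF10B. The median score size was 10.2 in the authors' deposited table, the same as over all regions that name a gene, and member scores ran from -18.8 to 9.66. ITGA4 with 17 regions, TNFAIP8 with 11 and IL17RA with 8 held the most, and 20 of the 37 members had a single region.

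**Figure D1:**
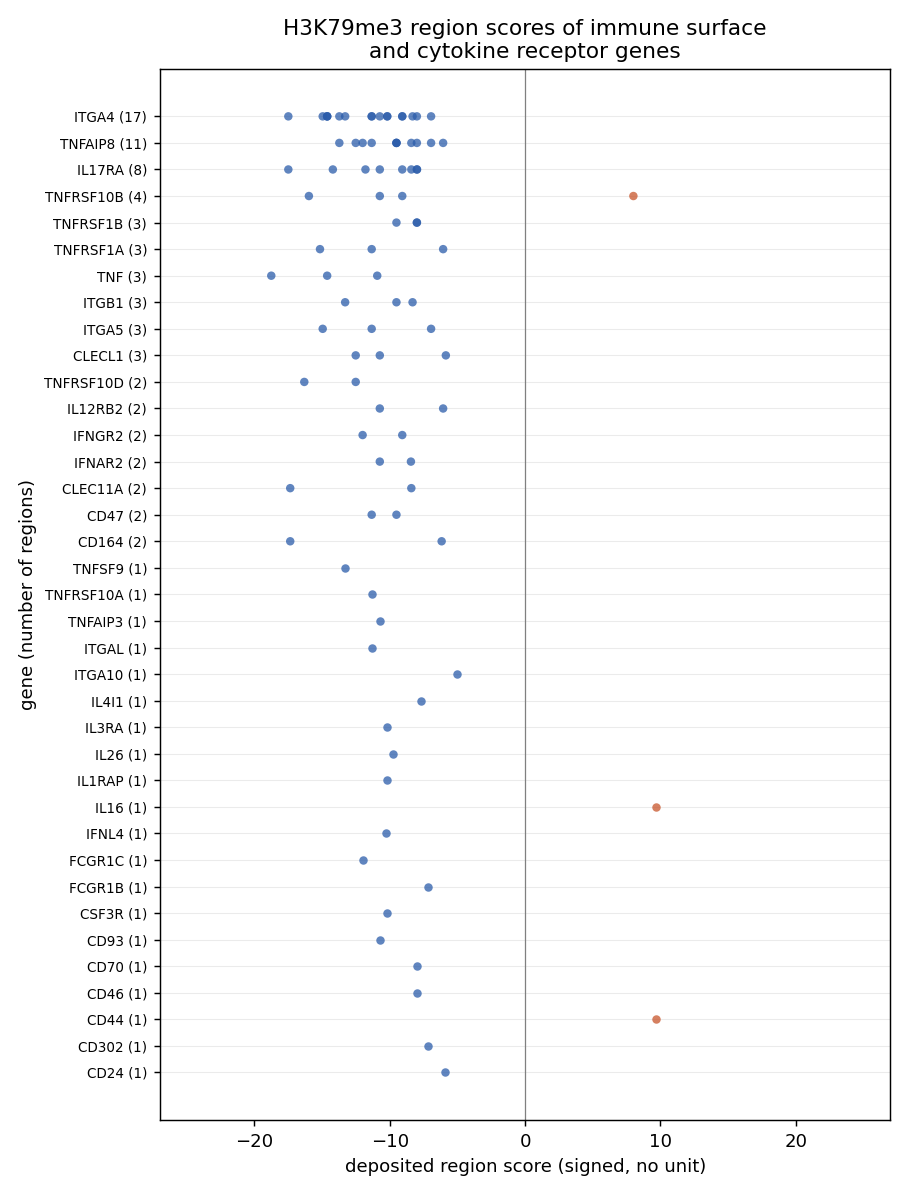
Deposited H3K79me3 region scores (x axis, signed, no unit) of each member gene with a region (y axis, number of regions in brackets); each point is 1 region, blue for negative and orange for positive. All but 3 of the 92 points lie left of 0, the exceptions being in CD44, IL16 and TNFRSF10B.

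H3K79me2 scores were divided between the signs. Of 89 regions, 53 were negative, or 59.6% (interval 49.2 to 69.1), beside 55.4% of all regions that name a gene. Counted by gene the balance was the other way round: 20 of 42 members had positive regions only, or 47.6% (33.4 to 62.3), beside 32.7% of all genes, and 14 had negative regions only, or 33.3% (21.0 to 48.4), beside 41.6%. The other 8 members had both signs, 19.0%, beside 25.8%. Among the 20, IFNAR2, IL10RB and IL10RB-AS1 share 1 region, scored 5.85, so they are not independent. TNFAIP8 alone held 13 of the negative regions, and without it 52.6% of the member regions were negative. The members with positive regions only included the chemokine receptors CCR1 and CCR2, the interferon receptor genes IFNAR1, IFNAR2 and IFNGR1, the growth factor receptor CSF1R, TLR2 and CD180, and CD53, CD83, CD84 and CD244. The others were IL6R, IL10RB, IL10RB-AS1, IL4I1, ITGAE, ITGAL, CLEC16A and TNFSF9. CCR1 and CCR2 lie near each other on chromosome 3, as do CD84 and CD244 on chromosome 1, so they are not independent. Member scores ran from -22.8 to 24.2 in the authors' deposited table, with a median size of 10.2, again that of all regions that name a gene.

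**Figure D2:**
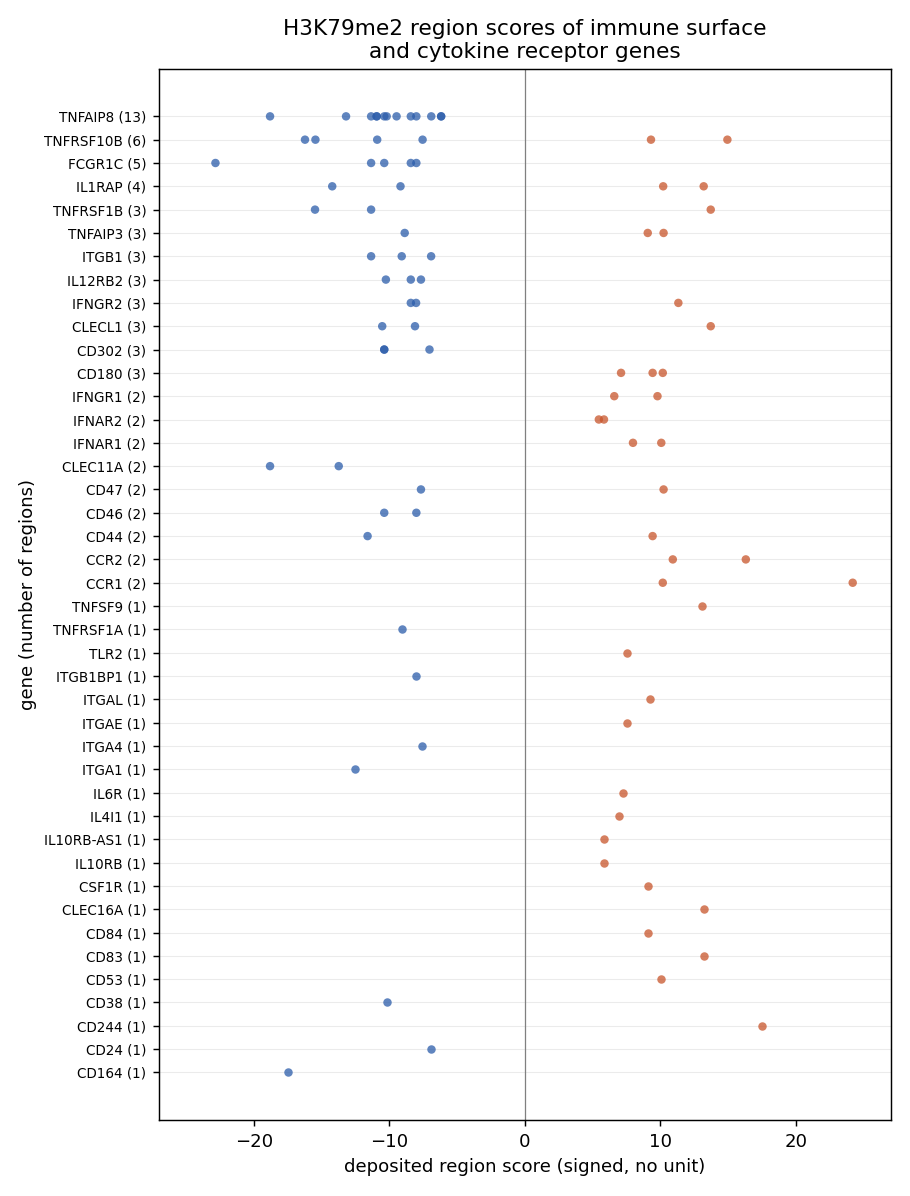
Deposited H3K79me2 region scores (x axis, signed, no unit) of each member gene with a region (y axis, number of regions in brackets); each point is 1 region, blue for negative and orange for positive. Of the 42 genes, 20 have points on the positive side only, 14 on the negative side only and 8 on both sides.

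**Figure D3:**
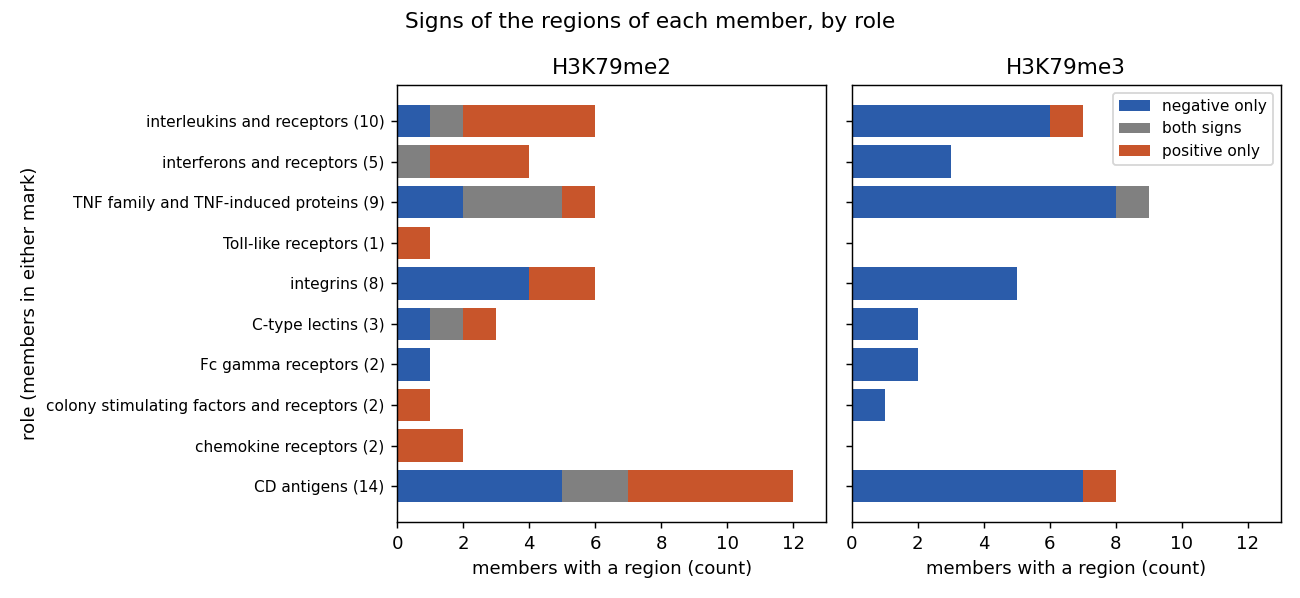
Number of members with a region (x axis, count) in each role group (y axis, members of the group in either mark in brackets), for H3K79me2 on the left and H3K79me3 on the right; colours give whether a member's regions were all negative, all positive or of both signs. The interferon, chemokine receptor, Toll-like receptor and colony stimulating factor groups have no H3K79me2 member with negative regions only. These groups are small, with 4, 2, 1 and 1 members with an H3K79me2 region. Of all genes named for H3K79me2, 41.6% have negative regions only. Nearly every H3K79me3 member has negative regions only, beside 94.2% of all genes named for that mark.

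Among secreted and membrane-bound ligands, TNF, the founding cytokine of its family, had 3 H3K79me3 regions and no H3K79me2 region. In the authors' deposited table they scored -14.6 at the promoter and an exon (chromosome 6, 31543591 to 31543655), -10.9 in an intron and -18.8 in an intron (31544394 to 31544514). The first of these regions also named LTA. The last region had the lowest H3K79me3 value of any member. Yet it ranked only 508 of the 13329 negative regions of the whole table, among 69 tied at that value. TNFSF9, the ligand of the costimulatory receptor 4-1BB, carried opposite signs in the marks. Its H3K79me3 region at the promoter scored -13.3 in the authors' deposited table (chromosome 19, 6530235 to 6530299), and its H3K79me2 region, intronic at 6531659 to 6531764, scored 13.1. CD70, the ligand of CD27, had 1 H3K79me3 region inside a CpG island, scored -8.00 in the authors' deposited table. The interleukin genes IL16, a T cell attractant, and IL26, of the IL10 family, each had 1 intronic H3K79me3 region, scored 9.66 and -9.76 in the authors' deposited table. CLEC11A, a secreted growth factor of hematopoietic progenitors with a C-type lectin fold, had negative regions at both ends. Both of its H3K79me2 regions lay at the promoter (chromosome 19, 51225681 to 51225792 and 51225968 to 51226041) and scored -13.7 and -18.8 in the authors' deposited table. Its H3K79me3 regions lay in an exon and the 3' UTR (51228849 to 51228962) and within 2 kb downstream, with -17.4 and -8.41 in the authors' deposited table.

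Of the members with a region annotated to their promoter, 5 had 1 start each in RefSeq's promoter table (GRCh38.p14). For the ligand genes among them, CLEC11A, TNF and TNFSF9, the 250 bases before that start are shown as examples; those of IL10RB and ITGA10, a receptor and an integrin gene, are not. All 3 lie on the plus strand, CLEC11A at chr19:50723114-50723363, TNF at chr6:31575315-31575564 and TNFSF9 at chr19:6530776-6531025. Capitals mark letters that matched a searched motif on either strand.
CLEC11A: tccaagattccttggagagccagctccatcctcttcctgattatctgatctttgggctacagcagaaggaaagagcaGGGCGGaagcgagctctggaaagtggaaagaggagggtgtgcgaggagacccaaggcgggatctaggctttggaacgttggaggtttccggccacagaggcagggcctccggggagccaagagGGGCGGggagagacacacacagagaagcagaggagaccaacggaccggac
TNF: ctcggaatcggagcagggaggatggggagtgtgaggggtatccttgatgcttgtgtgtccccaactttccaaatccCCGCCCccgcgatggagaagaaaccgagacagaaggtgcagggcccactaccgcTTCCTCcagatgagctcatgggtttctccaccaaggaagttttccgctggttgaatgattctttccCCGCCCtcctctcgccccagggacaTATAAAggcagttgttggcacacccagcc
TNFSF9: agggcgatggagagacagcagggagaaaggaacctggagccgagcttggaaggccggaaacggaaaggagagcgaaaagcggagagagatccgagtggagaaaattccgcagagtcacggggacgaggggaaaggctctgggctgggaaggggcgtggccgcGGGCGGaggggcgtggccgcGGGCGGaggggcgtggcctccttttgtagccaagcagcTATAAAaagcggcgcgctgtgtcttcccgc
The motifs searched were the TATA box (TATAAA), the GC box (GGGCGG), the AP-1 site (TGANTCA), the STAT site (TTCNNNGAA), the PU.1 core (GAGGAA) and the NF-kappaB consensus; no matches overlapped in these windows. TNF and TNFSF9 held a TATA box, beginning 29 and 30 bases before the start, which 10.7% of the 35116 windows of this length in the table also hold. Each of the 3 windows held 2 GC boxes, found at least once in 42.6% of all windows. TNF alone of the 3 held the PU.1 core, on the minus strand, present in 23.6% of windows. AP-1 (6.57% of windows), STAT (6.57%) and NF-kappaB (9.96%) letters were not in these windows, which says nothing about the factors. The deposited positions are in another build, so the differential regions were not placed within these sequences. A match of letters is a description and not a site.

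Cytokine receptors of the interleukin group had 1 gene with a run of regions. IL17RA, the shared receptor subunit of the IL17 cytokines, had 8 intronic H3K79me3 regions, all negative, within 8.42 kb of chromosome 22 (17567054 to 17575473), and none of H3K79me2. They stood in sets of 3, 3 and 2 when gaps over 2 kb were taken as breaks, the first 3 in a CpG island shore. Their scores in the authors' deposited table ranged from -17.5 to -7.99, and by number of regions the gene ranked 303 of the 4168 named for this mark, tied with others. IL12RB2, the signalling subunit of the IL12 receptor, was negative throughout, with 3 H3K79me2 regions (-7.66, -10.3 and -8.41) and 2 H3K79me3 regions (-6.06 and -10.7) in the authors' deposited table. The regions of the marks alternated along one stretch of an IL12RB2 intron, without overlapping. IL1RAP, the co-receptor of the IL1 and IL33 receptors, was split. Its 4 H3K79me2 regions, all intronic, scored 10.2, -14.2, 13.2 and -9.17 in the order of their positions in the authors' deposited table, the first 3 of them between 190237297 and 190243947 on chromosome 3, and its single H3K79me3 region scored -10.2. Single regions were found in IL6R (H3K79me2, 7.29), IL10RB (H3K79me2, 5.85) and IL3RA (H3K79me3, -10.2) in the authors' deposited table. The last, the interleukin-3 receptor subunit known as CD123, was placed on chromosome Y, in the part that X and Y share, so reads of the X copy could not be separated. IL4I1, a secreted amino acid oxidase that shares its annotated intron with NUP62, had 1 region of each mark, 6.97 for H3K79me2 and -7.66 for H3K79me3 in the authors' deposited table.

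The interferon group had more positive than negative H3K79me2 regions, 7 against 2, where 44.6% of all H3K79me2 regions that name a gene were positive, and 5 negative H3K79me3 regions with none positive, beside 98.1% negative among all. IFNAR1, a subunit of the type I interferon receptor, had 2 H3K79me2 regions at 7.99 and 10.1 in the authors' deposited table, and IFNGR1, the ligand-binding subunit for interferon gamma, had 9.80 and 6.61. Neither had an H3K79me3 region. IFNAR2, the partner of IFNAR1, had low positive H3K79me2 regions at 5.47 and 5.85 in the authors' deposited table, beside H3K79me3 values of -10.7, at the promoter and in a CpG island, and -8.44. Its second H3K79me2 region (chromosome 21, 34637222 to 34637303) lies downstream of IFNAR2 and is the same region that was named for the promoter of IL10RB and for IL10RB-AS1, so those 3 members share 1 measurement. IFNGR2, the partner of IFNGR1, had H3K79me2 regions at -8.41, 11.3 and -8.02 and H3K79me3 regions at -12.0 and -9.08 in the authors' deposited table. IFNL4 had 1 H3K79me3 region at its promoter, with -10.3 in the authors' deposited table. The interferon receptor genes IFNAR1, IFNAR2, IFNGR2 and the neighbour IL10RB lie side by side on chromosome 21, so they are not independent of one another.

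Of the TNF receptor genes, TNFRSF1A, TNFRSF1B and TNFRSF10B had regions of both marks. TNFRSF1A, the widely expressed TNF receptor, had 1 H3K79me2 region (-9.08) and 3 H3K79me3 regions (-6.06, -11.3 and -15.2), all negative, in the authors' deposited table. TNFRSF1B, the TNF receptor of leukocytes, had 3 negative H3K79me3 regions (-8.00, -9.51 and -8.00), while its H3K79me2 regions scored -15.5, 13.7 and -11.3 in the authors' deposited table. The death receptor gene TNFRSF10B, a receptor of TRAIL, was the 1 member with both signs in both marks. In the order of their positions on chromosome 8, its 6 intronic H3K79me2 regions scored 15.0, -15.5, -10.9, -16.2, 9.32 and -7.54 in the authors' deposited table. Its 4 H3K79me3 regions scored 8.00, -16.0, -9.08 and -10.7 in the authors' deposited table. The negative H3K79me2 region at 22902417 to 22902544 and the positive H3K79me3 region at 22902387 to 22902452 shared 35 bases, so the signs of the marks were opposite at that place. The neighbouring genes TNFRSF10A, another TRAIL death receptor, and TNFRSF10D, a decoy receptor, had H3K79me3 regions only, with -11.3 for the former and -12.5 and -16.3 for the latter in the authors' deposited table. These receptor genes are paralogs, and reads from near-identical stretches may have been assigned to either.

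TNFAIP8 and TNFAIP3, intracellular proteins induced by TNF, came in through their symbols. TNFAIP8, a regulator of apoptosis, had 13 H3K79me2 and 11 H3K79me3 regions, and all 24 were negative. H3K79me2 scores ran from -18.8 to -6.17 and H3K79me3 scores from -13.7 to -6.06 in the authors' deposited table. Only 49 genes had more H3K79me2 regions. The marks were offset along chromosome 5: 6 H3K79me3 regions lay before the first H3K79me2 region, and 3 H3K79me2 regions lay after the last H3K79me3 region. A pair of regions overlapped by 58 bases, 118633754 to 118633823 for H3K79me2 and 118633765 to 118633829 for H3K79me3, with -10.9 and -11.3 in the authors' deposited table. TNFAIP3, the ubiquitin-editing inhibitor of NF-kappaB also called A20, had H3K79me2 scores of -8.86, 9.08 and 10.3, the last in an exon, and 1 H3K79me3 region of -10.7 in the authors' deposited table.

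**Figure D4:**
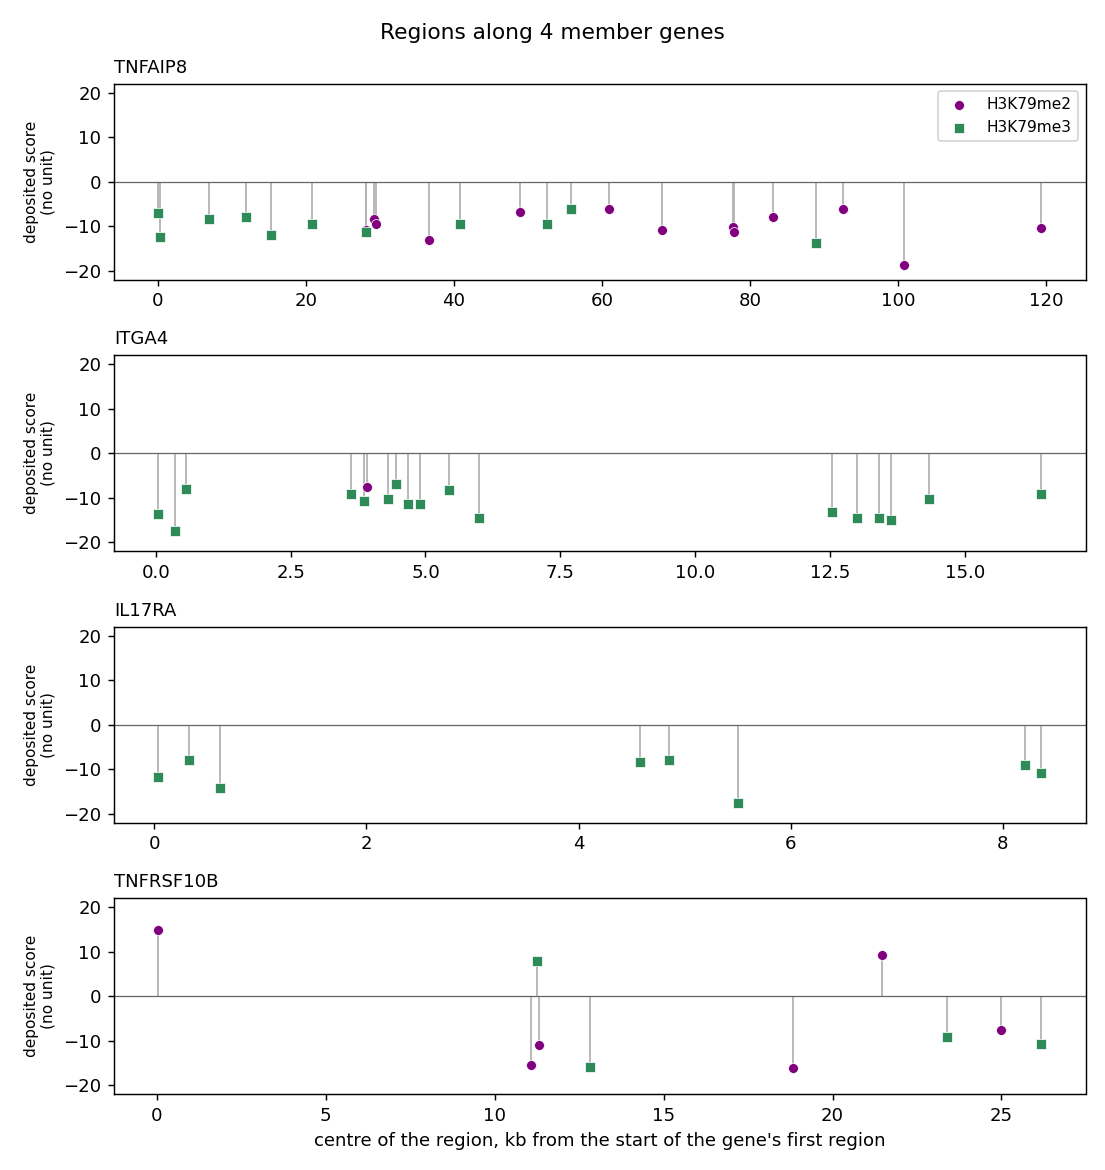
Deposited region scores (y axes, signed, no unit) against the centre of each region (x axes, kb from the start of the gene's first region) in TNFAIP8, ITGA4, IL17RA and TNFRSF10B; circles are H3K79me2 and squares H3K79me3, each point 1 region. TNFAIP8, ITGA4 and IL17RA have negative points only, ITGA4 with 17 H3K79me3 regions in 16.4 kb, while TNFRSF10B has points of both marks on both sides of 0.

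Chemokine receptor genes had H3K79me2 regions only, and all 4, in 2 genes, were positive, beside 44.6% of all regions that name a gene. CCR1, a receptor for inflammatory chemokines on monocytes, held the largest positive score of the members, 24.2 in the authors' deposited table (chromosome 3, 46246833 to 46246977), and a second intronic region at 10.2. It ranked 18 of the 3911 positive H3K79me2 regions, tied with others among 6 at that value. CCR2, the receptor that draws monocytes from bone marrow, had 16.3 and 10.9 in the authors' deposited table, in regions 74 bases apart (46398132 to 46398314 and 46398388 to 46398501). CSF1R, the macrophage growth factor receptor, had 1 positive H3K79me2 region (9.08), and CSF3R, the granulocyte growth factor receptor, 1 negative H3K79me3 region (-10.2) in the authors' deposited table.

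TLR2 was the 1 Toll-like receptor gene named, and neither it nor CD180 had an H3K79me3 region. CD180, a Toll-like molecule that modulates responses to lipopolysaccharide, had 3 intronic H3K79me2 regions at 9.44, 10.2 and 7.11 in the authors' deposited table. TLR2, the receptor for bacterial lipoproteins, had 1 at 7.53 in the authors' deposited table. Of the C-type lectin genes other than CLEC11A, CLECL1 had H3K79me2 scores of -8.10 and -10.5 in introns and 13.7 at the promoter, and 3 negative H3K79me3 regions (-5.86, -12.5 and -10.7) in the authors' deposited table. CLEC16A, which despite its symbol is an endosomal protein of the autophagy pathway, had 1 H3K79me2 region at 13.2 in the authors' deposited table. FCGR1C, an Fc gamma receptor pseudogene, had 5 negative H3K79me2 regions within 2.86 kb. The lowest of them (chromosome 1, 149372659 to 149372932) had -22.8 in the authors' deposited table, the lowest H3K79me2 value of any member. That region ranked 24 of the 4835 negative regions, among 16 tied at that value. FCGR1C and FCGR1B also had 1 negative H3K79me3 region each, -12.0 and -7.17 in the authors' deposited table. Both are near-identical copies of another gene of the family, so the reads of these regions may come from any of the copies.

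Integrins had 25 H3K79me3 regions, all negative, beside 98.1% of all regions that name a gene. ITGA4, the alpha subunit of the VLA-4 integrin that holds blasts to VCAM1 and fibronectin of the marrow, had 17 of them on chromosome 2, from 182323342 to 182339788, and 16 were intronic with 1 in an exon. Scores ran from -17.5 to -6.95 in the authors' deposited table, with a median of -11.3, and the regions stood in runs of 3, 8, 5 and 1 separated by gaps over 2 kb. The first 3 lay in a CpG island shore. Only 78 of the genes named for this mark had more regions. The single H3K79me2 region of ITGA4 (182327216 to 182327285, -7.61 in the authors' deposited table) shared 48 bases with an H3K79me3 region of -10.7. ITGB1, the beta subunit that pairs with ITGA4, was negative in 3 regions of each mark, from -11.3 to -6.91 for H3K79me2 and from -13.3 to -8.32 for H3K79me3 in the authors' deposited table. At a promoter of ITGB1 on chromosome 10 the H3K79me2 region 33225015 to 33225084 and the H3K79me3 region 33225110 to 33225174 lay 26 bases apart, with -9.08 and -9.51 in the authors' deposited table. ITGA5, the fibronectin receptor subunit that also pairs with ITGB1, had 3 H3K79me3 regions (-6.95, -11.3 and -15.0 in the authors' deposited table), all of them within an intron shared with LOC102724050. ITGAL, the alpha subunit of the leukocyte integrin LFA-1, had an H3K79me3 region at the promoter and first exon with -11.3 and an H3K79me2 region in an exon with 9.23 in the authors' deposited table. Other integrin members had single regions, ITGA1 (-12.5) and ITGB1BP1 (-8.00), a cytoplasmic binding partner of ITGB1, and ITGAE (7.53) in H3K79me2, and ITGA10 (-5.01) in H3K79me3, in the authors' deposited table. The regions of ITGA1, ITGAE, ITGB1BP1 and ITGA10 also named another gene.

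The 12 CD antigens with an H3K79me2 region, CD180 among them, were mixed, with 5 members negative only, 5 positive only and 2 of both signs, beside 41.6%, 32.7% and 25.8% of all genes named for the mark, while 7 of 8 members were negative only in H3K79me3, beside 94.2% of all genes. CD44, the hyaluronan receptor, was the 1 CD member with a positive H3K79me3 region. It lay at chromosome 11, 35166907 to 35167000, wholly inside a positive H3K79me2 region (35166899 to 35167033), with 9.66 and 9.44 in the authors' deposited table. A second H3K79me2 region of CD44, 18067 bases farther on, scored -11.6 in the authors' deposited table. CD47, which shields cells from phagocytosis, had H3K79me2 regions at 10.3 and -7.66 and H3K79me3 regions at -9.51 and -11.3 in the authors' deposited table. CD164, a sialomucin of hematopoietic progenitors, was negative in both marks, -17.5 for H3K79me2 and -6.17 and -17.4 for H3K79me3 in the authors' deposited table. CD302 and CD46, a complement regulator, were likewise negative in both marks, from -10.4 to -7.03 and from -10.4 to -8.00 in the authors' deposited table. Every CD302 region also named another gene, either MARCH7 or LY75-CD302. CD24, a small anchored glycoprotein, had -6.95 and -5.95 in the authors' deposited table, but its regions were placed on chromosome Y. RefSeq places CD24 on chromosome 6, and reads of related copies could not be told apart. Both of these CD24 regions also named TTTY14. Of the SLAM family, CD244 had 17.5 and CD84 had 9.08 for H3K79me2 in the authors' deposited table. The dendritic cell marker CD83 (13.2), the tetraspanin CD53 (10.1) and the NAD-consuming ectoenzyme CD38 (-10.2) each had 1 H3K79me2 region, and CD93 had 1 H3K79me3 region in an exon and its 3' UTR (-10.7), in the authors' deposited table.

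Both marks had regions in 23 members, which is 54.8% of the members with H3K79me2 and 62.2% of those with H3K79me3; for all named genes the shares were 56.2% and 50.9%. Of the 23, 11 were negative only in both marks (CD164, CD24, CD302, CD46, CLEC11A, FCGR1C, IL12RB2, ITGA4, ITGB1, TNFAIP8 and TNFRSF1A). Another 4 were positive only for H3K79me2 and negative only for H3K79me3 (IFNAR2, IL4I1, ITGAL and TNFSF9), and the other 8 had both H3K79me2 signs. The same combinations were not counted over all genes with both marks. Of all genes named for H3K79me3, 94.2% were negative only, so the H3K79me3 sign adds little to these combinations. Regions of the marks overlapped by at least 1 base in 4 places, in CD44, ITGA4, TNFAIP8 and TNFRSF10B. These were 4.49% of the member H3K79me2 regions and 4.35% of the member H3K79me3 regions, beside 1.81% and 1.16% of all regions. The member shares rest on these 4 places only. Of the 4 pairs, 3 had the same sign, beside 64.8% of the 159 overlapping pairs of the whole series.

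The regions were short and mostly intronic, like those of the rest. The median width was 88 bases for H3K79me2 and 79.5 for H3K79me3, beside 88 and 85 over all regions that name a gene. Intron was the one annotation of 88.8% and 87.0% of member regions, beside 87.6% and 84.2%. Promoters were named in 7.87% (interval 3.86 to 15.4) and 8.70% (4.47 to 16.2), beside 5.85% and 8.97%, and CpG island shores in 12.4% and 25.0%, beside 12.3% and 20.0%. The scores took few values, 60 distinct ones over the 89 H3K79me2 regions and 37 over the 92 H3K79me3 regions. H3K79me3 scores of -11.3 and of -10.7 each occurred in 8 member regions in the authors' deposited table, so equal scores in different genes carry little information on likeness.

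The signalling partners of these receptors, a list of 77 kinases, adaptors, transcription factors and antigen presentation genes, were likewise mixed in H3K79me2 and nearly all negative in H3K79me3, as the whole tables were. H3K79me2 regions were found in 26 of them (33.8%), beside 17.0% of protein-coding genes, and H3K79me3 regions in 25 (32.5%), beside 17.9%. Gene length was not matched. The list was chosen with earlier results of these data known, so these shares are no test of the genes listed. By H3K79me2 sign, 7 were negative only (26.9%, beside 41.6% of all genes), 9 positive only (34.6%, beside 32.7%) and 10 of both signs (38.5%, beside 25.8%). By H3K79me3 sign, 24 were negative only and 1 positive only. Of 58 H3K79me3 regions 57 were negative, or 98.3%, beside 98.1% of all regions that name a gene, and of 78 H3K79me2 regions 48 were, or 61.5%, beside 55.4%. SYK, the kinase downstream of Fc receptors and integrins, was negative in 5 H3K79me2 and 6 H3K79me3 regions. PIAS1, a SUMO ligase that restrains STAT proteins, had 9 negative H3K79me3 regions beside 6 negative and 2 positive H3K79me2 regions. IRAK3, an inhibitor of Toll-like receptor signalling, had 8 negative H3K79me3 regions, and its H3K79me2 regions, 3 negative and 1 positive, reached 21.6 in the authors' deposited table. VCL, which links integrins to actin, had 10 H3K79me2 regions, 8 of them negative, and no H3K79me3 region. STAT5B, activated by many of these cytokine receptors, had 5 negative and 2 positive H3K79me2 regions, and SOCS5, a suppressor of cytokine signalling, had the same counts. The 9 genes with positive H3K79me2 regions only were CISH, INPP5D, JAK1, PIAS2, PTPN6, PTPRC, TAPBP, TRAF2 and TRAF3. Of these, 5 (INPP5D, JAK1, PIAS2, PTPN6 and PTPRC) had negative H3K79me3 regions only, TRAF2 had 1 positive H3K79me3 region, and CISH, TAPBP and TRAF3 had none.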

How the data were processed

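The submitters' processing notes list MACS2 2.1.1, Bowtie2, DESeq2 and bedtools as the authors' tools, and hg19, hg38 and GRCh38 as builds, with no role or order; how the tables were made from them is not given in the sources used here. Per the file headers, each row of the authors' tables gives a region, a signed score and the gene annotation. Of 161 intron regions of members on the RefSeq chromosome of their gene, 10 lay inside the GRCh38 gene bounds (6.21%), so positions are printed as deposited, in a build other than GRCh38; the sources do not say if a start counts from 0 or 1. The deposited score, made by the authors, was used as it stands.

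A region belongs to each gene named in columns 6 to 12 (promoter, 2 kb upstream, exon, intron, 2 kb downstream and both UTR columns). CD33 and FCGR1A were left out by the rule, and CD symbols with digits after the letters were not counted. All 56 members matched RefSeq, 3 through an older symbol. Members and lists were chosen with earlier results of these data known. Individual description was given to 28 genes, some of them by a range of scores or in part. They had 4 or more regions, both signs, differing majority signs or 1 of the 6 largest scores of a mark and sign. The others are examples of their group. The signalling genes with positive H3K79me2 regions only and the promoters shown were chosen after their values were seen. The assignment was tested on simulated data. Scripts ran under Python 3.11.15 with statsmodels 0.14.6, pandas 2.3.3, numpy 2.4.6, matplotlib 3.10.9 and scipy 1.17.1.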

Additional observations from a re-analysis of the deposited data

How the results depend on the processing

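Sign shares, counts, score sizes and promoter shares were recomputed under 9 settings, 2 of them (leaving out regions that name another gene, and regions on chromosomes X and Y) added after the data were seen. Of 60 values, 54 stayed within the interval of the reported value, or within 1.5 times it for counts. The other 6 follow. With 1 value per member, 45.2% of members had a negative median H3K79me2 score, beside 59.6% of regions. With a score size of at least 10, 27 members had an H3K79me2 region and 13 had both marks. Under that setting 100% of H3K79me3 regions were negative, and the median score sizes were 11.3 for H3K79me2 and 12 for H3K79me3. These changes follow from the cutoff itself: it removes the smaller scores, among them every positive H3K79me3 region of the members. Depth is unknown, and no alternative replaces the missing replicates.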
